A study of Drosophila melanogaster with 4 samples.

Results

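Broad domains of histone H4 acetylated at lysine 8 (H4K8ac) were defined as the clusters of the series-wide list that were 10000 bp or longer. A cluster is a stretch of the genome that the authors called enriched in chromatin immunoprecipitation and sequencing (ChIP-seq), and its length was counted from the first to the last base, both included. There were 564 such domains among 9912 clusters, on all sequences. The chromatin came from Drosophila melanogaster larvae at the third instar, of strain Oregon-R and genotype wild type, with no treatment named in the labels. Of the 4 libraries, 2 were H4K8ac ChIP replicates and 2 were input DNA, and no list of an input was analysed here. Per the labels, the ChIP used rabbit polyclonal antibodies to a human H4 peptide with that acetylated lysine. Larvae hold many cell types, so a domain may be marked in some of them and not in others, and these lists cannot tell which. The labels do not say if the 2 replicates were collected separately, so a difference between them may be technical.

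H4K8ac is written by histone acetyltransferases and removed by deacetylases on the flexible tail of histone H4. Acetylation removes the positive charge of the lysine, weakens the hold of the tail on DNA and neighbouring nucleosomes, and makes a docking site for proteins with bromodomains. The mark is known from the promoters and bodies of transcribed genes, and it can extend over long stretches where active genes lie side by side.

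The domains were chosen by their length in the series-wide list, so their number, length, score and position describe that list. The sources used here do not say which reads went into the series-wide list. The replicate lists were therefore not taken as independent of it, and no test was run. The main counts over the domains are given with the share of all 9912 series-wide clusters that met the same condition.

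The domains made up 5.69% of the series-wide clusters and 33.3% of their bases. Together they covered 11.3 Mb, or 9.50% of the 5 major arms 2L, 2R, 3L, 3R and X, where clusters of every length covered 28.5%. Their lengths ran from 10051 to 117067 bp, with a median of 15439 bp and a mean of 20.1 ± 13.2 kb (SD over the 564 domains). The lengths were thus skewed towards the lower limit, and the 161 longest (28.5% of the domains) held 50% of the domain bases. By length, 144 domains were under 12 kb, 120 had 12 kb up to 15 kb, 120 had 15 kb up to 20 kb, 100 had 20 kb up to 30 kb, 63 had 30 kb up to 50 kb, and 17 had at least 50 kb.

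The length limit cut through a continuous range. Just inside it lay 2R 17434200 to 17444250 (10051 bp, score 0.637), 3L 12376838 to 12386912 (10075 bp, score 0.562) and 2L 4572218 to 4582302 (10085 bp, score 0.550). Just outside it lay 3L 15092154 to 15102152 (1 bp short of the limit, score 0.560), X 18531386 to 18541378 (9993 bp, score 0.593) and 2L 18309510 to 18319500 (9991 bp, score 0.535). All 6 were met by clusters of both replicates. When series-wide clusters less than 1000 bp apart were merged before the limit was applied, 869 domains over 20.3 Mb resulted. The score is the authors' own value per cluster, on a scale the sources used here do not state, so it served only to rank clusters within a list.

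All 564 domains lay on the 5 major arms. The 9 other sequences of the build, which are chromosome 4, the heterochromatic scaffolds and the unplaced sequences, held 23 series-wide clusters and no domain. The longest of those 23 was 5345 bp, on chromosome 4 from 539198 to 544542. Chromosome arm 3L carried the most domains, with 147 over 3.23 Mb (13.2% of the arm). Then came 3R with 129 over 2.49 Mb (8.94%), 2R with 128 over 2.45 Mb (11.6%), 2L with 97 over 2.00 Mb (8.70%) and the X with 63 over 1.14 Mb (5.08%). Per Mb of arm, 2R and 3L were the densest at 6.05 and 5.99 domains, 3R had 4.62 and 2L had 4.22.

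The X had 2.81 domains per Mb, against a mean of 5.22 over the 4 autosomal arms, a ratio of 0.538. Domains made up 3.54% of the series-wide clusters of the X, against 5.29% to 7.07% of those of the autosomal arms. Clusters of 10 kb or more in the replicate lists gave lower ratios, 0.419 in replicate 1 (18 such clusters on the X) and 0.480 in replicate 2 (17 on the X), a mean of 0.449 ± 0.043 (SD, n = 2). Domains of the X were nonetheless of ordinary length, with a median of 15421 bp against 15095 to 16431 bp on the autosomal arms. They differed in score, whose median was 0.678 on the X and 0.601 to 0.625 on the autosomal arms. Within length classes the order was the same. From 10 kb up to 15 kb the median score was 0.628 on the X (n = 30) and 0.560 on the autosomal arms (n = 234), from 15 kb up to 20 kb 0.677 (n = 18) and 0.607 (n = 102), and from 20 kb upwards 0.706 (n = 15) and 0.674 (n = 165). The X domains were also covered less in the replicates, over 73.5% of their bases in replicate 1 and 72.0% in replicate 2, against 80.0% to 82.1% and 75.9% to 78.2% on the autosomal arms.

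Domains were unevenly placed along the X, and the counts of the other arms varied too. On 3R each part held from 8 up to 19 domains. Whether the counts of any single arm varied more than random placement would give was not tested. When each arm was divided into 10 equal parts, the X had 27 of its 63 domains (42.9%) in the first 2 parts, 24 in parts 3 to 8, 12 in part 9 and 0 in the last. The final domain of the X ended at 19298276, which left 3125 kb to the end of the arm sequence. That stretch held 146 series-wide clusters, the longest of 9925 bp. In the standard orientation the last part of 2L, 3L and X and the first part of 2R and 3R lie next to the centromere. These parts held 7, 7, 0, 3 and 14 domains on 2L, 3L, X, 2R and 3R. Arm 3R was thus the exception, and the 3R part with most domains, with 19, was the last one, at the telomeric end. Arm 3L had its peaks in part 1 (23 domains) and part 5 (22), and arm 2L had its lowest count, 2, in part 8.

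**Figure D1:**
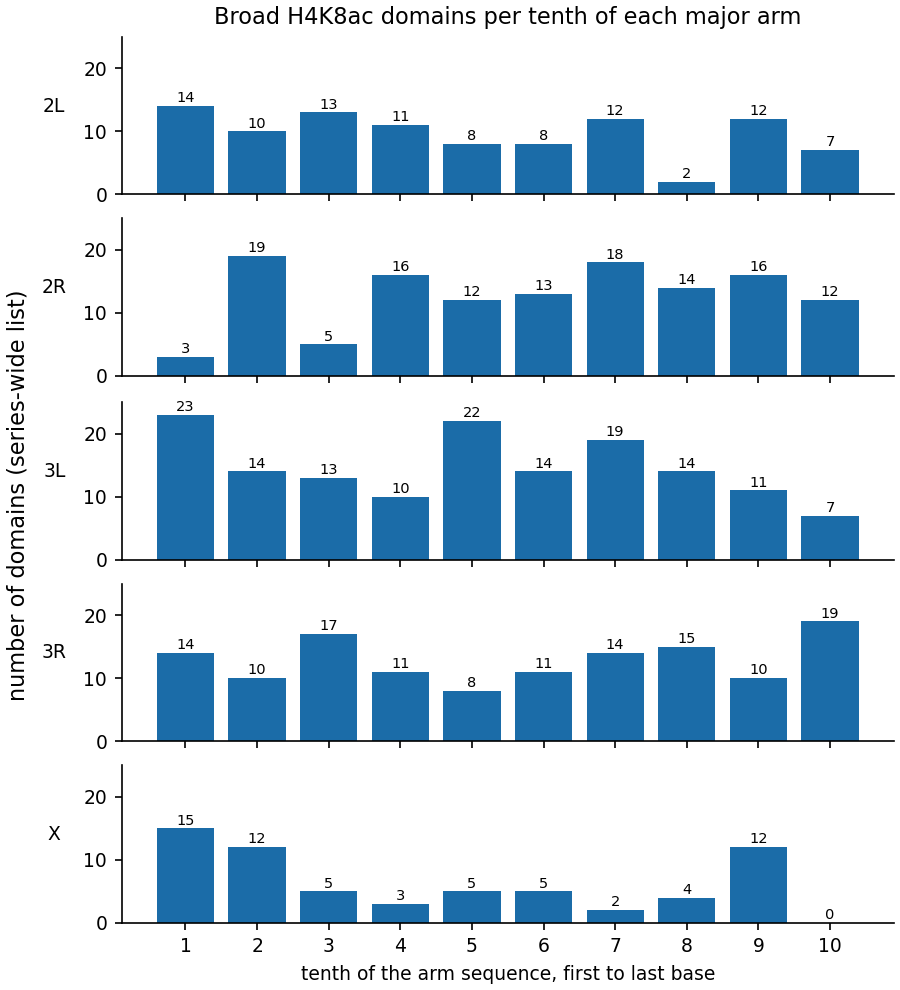
Number of broad domains (y axis, printed above each bar) in each of 10 equal parts of the 5 major arms (x axis, first to last base), from the series-wide list. The X holds 15 and 12 domains in its first parts and 0 in its last, while 3L reaches 23 in part 1 and 22 in part 5.

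Over the 117 full windows of 1 Mb, the mean was 4.74 domains by midpoint and the variance was 1.86 times the mean. No domain had its midpoint in 7 windows, of which 3 were on the X, 2 on 2L, 1 on 2R and 1 on 3L. At the other end, 8 windows held 10 or more and together 88 domains. The fullest were the first Mb of 3L with 13 and 15 to 16 Mb on 2R with 12.

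Distances between neighbouring domains were skewed, with many short ones and a long tail. The 559 distances, counted as the bases between the end of a domain and the start of the next on the same arm, had a median of 68.9 kb and a mean of 175 kb, with quartiles of 8.69 and 247 kb. Neighbours lay within 10 kb of each other in 152 cases (27.2%), and 49 distances were over 500 kb. By arm, the median was 42.2 kb on 3L, 59.7 kb on 2R, 99.0 kb on 2L, 100.3 kb on 3R and 138 kb on the X.

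A neighbouring domain lay within 50 kb for 368 of the 564 domains (65.2%). Another broad domain lay within 50 kb for 44.2% of all series-wide clusters, and for 550 of the 935 clusters of 5 kb up to 10 kb (58.8%). The domains were thus nearer to that next-shorter class than to the whole list. Clusters of 5 kb up to 10 kb stood as close to one another as domains did, or closer, with a median distance of 50.5 kb, a mean of 115 kb and 26.3% of distances within 10 kb, but they were also more numerous. Short distances between neighbours were therefore not a feature of the domains alone. Among clusters of 10 kb or more within a replicate list, 58.7% of the 201 in replicate 1 and 58.3% of the 168 in replicate 2 had another within 50 kb.

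When domains at most 50 kb apart were joined, 317 groups resulted. Of these, 196 were single domains, 60 were pairs, 31 held 3 domains, 16 held 4 and 14 held 5 or more. The groups of 2 or more held 70.1% of the domain bases. Grouped domains were longer than single ones, with a median of 16679 bp against 13865 bp, and 66 of the 368 (17.9%) reached 30 kb, against 14 of the 196 single ones (7.14%). Their median score was 0.629 against 0.585, and their median covered share was 82.8% against 75.8% in replicate 1 and 77.7% against 72.8% in replicate 2.

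The largest group was on 2R from 15690252 to 16101380 and held 13 domains of 10.2 to 81.5 kb. The domains filled 86.7% of its 411 kb, and series-wide clusters of any length filled 95.0%. Replicate 1 covered 74.7% of this span and replicate 2 covered 71.6%. Its members were unequal. The domain at 15958524 to 15993950 was covered over 91.7% in replicate 1 and 99.0% in replicate 2, whereas the one at 15702756 to 15713208 was covered over 23.6% and 31.2%.

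The next groups were on 3L and 2L. The 10 domains of 3L 452412 to 826904 filled 68.9% of 374 kb, with scores from 0.507 to 1.01, and the replicates covered 66.3% and 65.9% of the span. In the group of 9 domains at 2L 14363822 to 14689376, 92.0% of 326 kb lay in domains, and coverage was 83.2% in replicate 1 and 79.3% in replicate 2. By share of the span in domains, this 2L group was the most continuous of the 5 groups with most domains. Series-wide clusters of any length filled 94.9% of its span, about as much as in the 2R group of 13 domains. Members of the 2L group were separated by 79 to 11829 bp. The remaining groups of the 5 were 7 domains at 3R 6296162 to 6473654 (80.3% of 177 kb) and 6 domains at 2L 20876446 to 21037586 (60.3% of 161 kb). A further group of 6, with fewer bases in domains, lay at 2R 14416108 to 14560896 (52.3% of 145 kb). The 3R group was the only one of the 5 that replicate 1 covered less than replicate 2, over 59.4% against 69.1%.

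A smaller group on 3R stood out and was chosen after its values were seen. It ran from 798986 to 952586 and held 5 domains of 14.4 to 38.9 kb, separated by 1015 to 5853 bp. Their scores were 1.02, 1.11, 1.25, 1.03 and 1.04 from left to right, and these included the 4 highest scores of all domains. Every one of the 5 was held by a single cluster in replicate 1 and a single cluster in replicate 2. Coverage was 99.2% to 99.9% in replicate 1 and 98.5% to 99.6% in replicate 2. The fifth domain in order of score was on the X from 1448940 to 1462538 (13.6 kb, score 1.03), covered over 89.5% and 76.9%. It lay 29 bp before the longest domain of the X, 60.3 kb from 1462568 to 1522892.

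Some neighbouring domains were almost continuous. The distance was at most 1000 bp for 58 pairs and at most 100 bp for 15 pairs. The closest pair was separated by 1 bp, on 2L at 7893304 to 7937394 (44.1 kb) and 7937396 to 7959588 (22.2 kb). Replicate 1 covered 82.8% and 70.2% of these domains and replicate 2 covered 66.0% and 73.2%. Of the 58 pairs, 1 was joined by a replicate cluster, at 3L 22352598 to 22355459 in replicate 2. No other cluster of either replicate touched more than 1 domain.

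The 5 longest stretches between neighbouring domains were 1343 to 2057 kb. They were X 6892719 to 8949227, 2L 16284661 to 18139043, X 14111343 to 15498371, 3R 12159127 to 13522679 and 3R 23035383 to 24378781. None was empty, as they held 65 to 185 series-wide clusters each, the longest of 8697 to 9849 bp. Clusters covered 10.6% to 21.0% of these stretches in the series-wide list, 2.78% to 7.09% in replicate 1 and 3.88% to 6.31% in replicate 2. The X stretch of 2057 kb began directly after X 6875966 to 6892718, a domain of 16.8 kb covered over 98.7% and 98.4%.

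Sequence within 20 kb of the domains was richer in shorter clusters than sequence farther away, most of all from 1 to 10 kb. In the first 1 kb beyond a border, 27.4% of the bases were in other series-wide clusters. The share was 51.2% from 1 to 2 kb, 53.0% from 2 to 5 kb, 45.1% from 5 to 10 kb, 35.2% from 10 to 20 kb, 24.9% from 20 to 50 kb, 19.8% from 50 to 100 kb and 14.4% beyond. Across all sequence of the major arms outside domains it was 21.0%. The replicate lists ran the same way, with 28.4% and 25.2% from 2 to 5 kb and 4.99% and 4.41% beyond 100 kb in replicates 1 and 2. A cluster of any length lay within 1000 bp of 403 domains (71.5%), against 54.7% of all clusters, but the median distance to the nearest cluster was 357 bp for domains and 335 bp for clusters of 5 kb up to 10 kb.

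Both replicates covered most of the bases of the domains. Replicate 1 covered 80.0% of the domain bases and replicate 2 covered 76.8%, or 78.4% ± 2.25 (SD, n = 2). Clusters of 5 kb up to 10 kb were covered over 60.7% and 54.6%, and all clusters over 51.5% and 47.6%. Bases present in both replicates made up 66.5% of the domains, and those in at least 1 replicate made up 90.3%. The remaining 9.69% was in the series-wide list alone.

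Every domain except 1 was met by both replicates. At least 1 base was shared with each replicate for 563 of the 564 domains (99.8%), against 25.2% of all series-wide clusters and 89.4% of those of 5 kb up to 10 kb. Under 5000 bp the share was 13.1%. A longer region is more easily met by 1 base, and the domains were chosen by length. The contrast with all clusters therefore cannot be separated from length. The shortest cluster was 1001 bp in the series-wide list and 1301 bp in each replicate list, so the lists did not share a lower limit of length. Coverage of 50% or more in both replicates was found for 466 domains (82.6%), against 16.1% of all clusters. Coverage of 90% or more in both was found for 76 domains (13.5%), against 1.26% of all clusters.

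Coverage differed more between domains than between replicates. The median domain was covered over 80.5% in replicate 1 (quartiles 66.0% and 90.7%) and 76.3% in replicate 2 (quartiles 61.5% and 87.1%). The difference between replicates had a median of 8.50 percentage points, and 341 domains were covered more in replicate 1 and 223 more in replicate 2. Coverage under 50% was found for 53 domains (9.40%) in replicate 1, against 68.4% of all series-wide clusters, and for 66 (11.7%) in replicate 2, against 71.9%. Among clusters of 5 kb up to 10 kb these shares were 32.6% and 41.8%. Across the 564 domains the coverage of the replicates had a Spearman correlation of 0.66, given without a p because domains of one genome share libraries and list.

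Longer domains were covered more completely. Under 12 kb, 71.0% of the bases were in replicate 1 and 66.5% in replicate 2. From 20 kb up to 30 kb these shares were 81.6% and 79.2%, and in the 17 domains of 50 kb or more they were 90.8% and 89.7%. Bases in both replicates took up 53.6%, 68.6% and 84.3% of these classes.

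**Figure D2:**
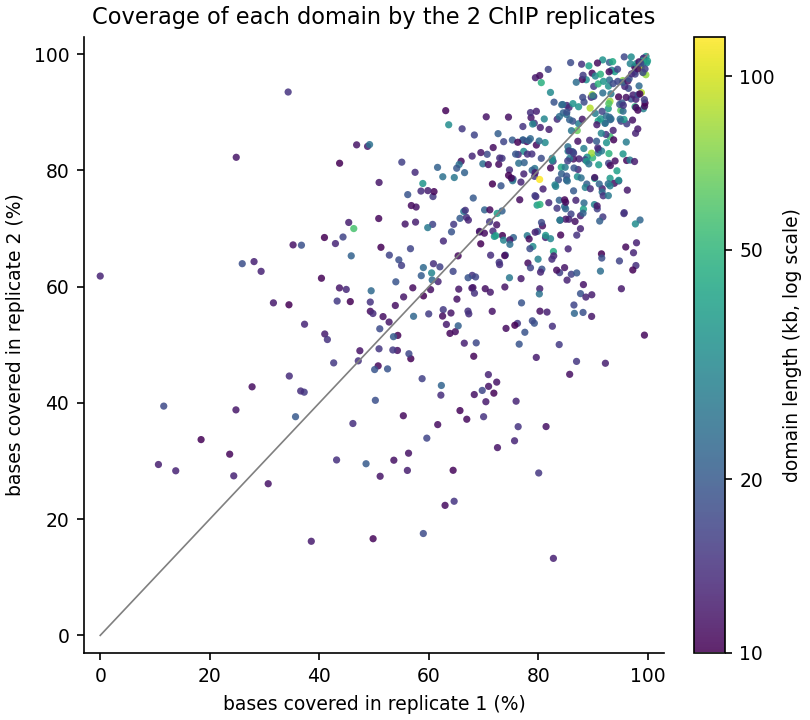
Share of the bases of each of the 564 domains covered by replicate 1 (x axis, %) and replicate 2 (y axis, %), with 1 point per domain, the color giving domain length in kb on a log scale and the grey line marking equal coverage. Long domains gather at the upper right, and 1 short domain sits at 0% in replicate 1 and 61.8% in replicate 2.

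The 5 least shared domains all had scores under the lower quartile of the domains, 0.547. The domain that replicate 1 missed was 3L 3642516 to 3655364 (12.8 kb, score 0.439), of which replicate 2 covered 61.8% with 3 clusters. At 2R 14081080 to 14093850 (12.8 kb), the replicates covered 13.8% and 28.3% with no base in common, and the score of 0.408 was the lowest of all domains. These were the only domains without a base in both replicates. The next in order were 2R 17759810 to 17772548 with 5.01% of its bases in both, X 1185930 to 1205798 with 6.09% and 3R 19913702 to 19926064 with 6.28%. At the X domain the replicates covered 48.5% and 29.5%, so each marked a different portion.

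In 44 domains (7.80%) the covered shares differed by more than 30 percentage points, against 28.4% of all series-wide clusters and 30.6% of those of 5 kb up to 10 kb. Replicate 1 was higher in 32 of the 44 and replicate 2 in 12. The largest difference, noticed after the values were seen, was at 2R 3061336 to 3073906, where replicate 1 covered 82.7% and replicate 2 covered 13.3%. In the opposite direction, and after the domain that replicate 1 missed, 3L 20638472 to 20653022 was covered over 34.3% in replicate 1 and 93.5% in replicate 2.

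The replicates usually broke a domain into several clusters. Replicate 1 had 1 cluster in 81 domains, 2 in 150, 3 in 149, 4 in 87 and 5 or more in 96, with a mean of 3.14. Replicate 2 had 1 cluster in 69 domains, 2 in 131, 3 in 152, 4 in 96 and 5 or more in 116, with a mean of 3.39. The numbers were equal in 173 domains (30.7%) and differed by 1 in 245. Replicate 1 had more clusters in 159 domains and replicate 2 in 232.

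A single cluster in each replicate was found for 36 domains (6.38%), against 12.6% of all series-wide clusters. That background share is lowered by clusters not met by both replicates. Of the 2499 series-wide clusters met by both, 1246 had a single cluster in each, a far larger share than among the domains. When replicate clusters less than 1000 bp apart were merged, the share of the domains was 29.3%. Among shorter regions, 247 of the clusters of 5 kb up to 10 kb (26.4%) met this condition. In 45 domains replicate 1 had 1 cluster and replicate 2 several, in 33 the reverse, and in 449 (79.6%) both had several. These conditions held for 2.53%, 2.83% and 7.27% of all series-wide clusters, and for 16.8%, 18.7% and 27.5% of those of 5 kb up to 10 kb. Of the 2499 series-wide clusters met by both replicates, they held for 251, 281 and 721. Replicate clusters were 1301 bp or longer, so a short region has little room for several. The contrast with the domains therefore cannot be separated from length. The 36 unbroken domains had a median length of 13335 bp and a median score of 0.808, above the upper quartile of all domains, 0.696. Their median coverage was 97.1% in replicate 1 and 95.7% in replicate 2. Of these, 22 were covered to 90% or more in both replicates, whereas 2 were covered under 50% in both.

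The longest unbroken domain was 3R 14874848 to 14919110, of 44.3 kb. Replicate 1 had 1 cluster from 14875182 to 14919010 and replicate 2 had 1 from 14875040 to 14918775. Each covered close to 99% of the domain, at 99.0% and 98.8%. At 3L 711992 to 748660 (36.7 kb, score 1.00) the shares were 99.8% and 98.5%. That domain belonged to the group of 10 on 3L.

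**Figure D3:**
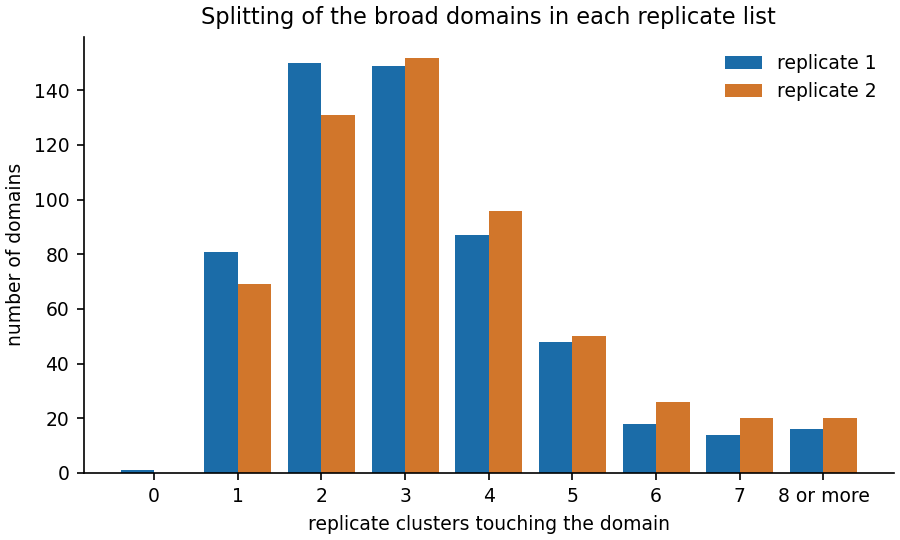
Number of domains (y axis) by the number of clusters that touch them (x axis) in replicate 1 (blue) and replicate 2 (orange). Most domains hold 2 to 4 clusters, and replicate 2 exceeds replicate 1 in each class from 3 clusters upwards.

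The number of clusters went with length, but less than in proportion. The Spearman correlation of length and number of clusters across domains was 0.51 in replicate 1 and 0.56 in replicate 2 (n = 564). Clusters per 10 kb of domain numbered 1.95 and 2.05 in the class under 12 kb, and 0.853 and 0.977 in that of 50 kb or more. The largest single cluster of a replicate took up a median of 40.7% of a domain in replicate 1 and 36.1% in replicate 2.

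The 5 domains with most clusters, summed over the replicates, included 4 of 57.3 kb or more. At 2R 16004452 to 16085902 (81.5 kb) there were 16 clusters in replicate 1 and 15 in replicate 2, over 89.7% and 83.0% of the bases. The longest domain of all, 3L 10733412 to 10850478 (117 kb), had 12 breaks in replicate 1 and 15 in replicate 2. Of the 12, 10 met a break of replicate 2. The X domain at 2867944 to 2925238 (57.3 kb) had 10 clusters in replicate 1 and 12 in replicate 2 and was far less complete, at 46.3% and 70.0%. The others were 2L 1385456 to 1474442 with 9 and 12 clusters and 3L 6267572 to 6315864 with 10 in each. The sum of 20 was also reached at 2R 8884498 to 8922020 (37.5 kb), with 7 and 13 clusters, which is shorter than the 3L domain. Length alone did not set the number, as 3R 10219064 to 10307280 (88.2 kb) had 4 clusters in replicate 1 and 6 in replicate 2, and none of its breaks was shared.

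Breaks inside the domains were short and partly at the same places. Replicate 1 had 1209 breaks with a median of 613 bp, and replicate 2 had 1349 with a median of 680 bp. Breaks under 1000 bp made up 64.5% and 62.7%, and the longest were 7073 and 8298 bp. Of the replicate 1 breaks, 575 (47.6%) met a break of replicate 2, and 583 of the replicate 2 breaks (43.2%) met one of replicate 1. Where breaks met, their midpoints were a median of 447 bp and 464 bp apart.

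By bases, 39.1% of the replicate 1 breaks were uncovered in replicate 2, whereas replicate 2 left 20.9% of the same domains uncovered between the outer borders of replicate 1. The corresponding values for replicate 2 breaks were 33.7% and 17.3%. A break of one replicate was thus more often uncovered in the other than the domain in general, but 542 of the replicate 1 breaks (44.8%) and 680 of the replicate 2 breaks (50.4%) were filled completely by the other replicate. Among the 449 domains with breaks in both replicates, 341 (75.9%) had at least 1 place where breaks met and 108 had none.

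The outer borders of the replicates in a domain lay a median of 571 bp apart. Borders were taken as the first base of the leftmost and the last base of the rightmost replicate cluster that touched the domain, over the 563 domains met by both. The quartiles of the 1126 border distances were 172 and 1490 bp, and the largest was 12206 bp. Left borders had a median distance of 593 bp and right borders 557 bp, so the sides were alike. At 500 bp or less, 533 borders (47.3%) matched, 190 (16.9%) did so at 100 bp or less, and 197 (17.5%) were more than 2000 bp apart. The median distance was 170 bp in the 76 domains covered to 90% or more in both replicates, 902 bp when replicate clusters less than 1000 bp apart were merged, and 2292 bp when the borders of the longest replicate cluster were taken instead. Over all 2499 series-wide clusters met by both replicates, the median was 454.5 bp, and 52.1% of borders were within 500 bp. For clusters of 5 kb up to 10 kb these values were 709.5 bp and 41.7%, and under 5000 bp they were 311.5 bp and 62.5%.

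The signed distance, replicate 2 minus replicate 1, had a median of 82 bp on the left and -37 bp on the right, small against the spread. Both borders were within 500 bp for 130 domains (23.0%), against 7.73% of all series-wide clusters, most of which were not met by both replicates. Among clusters of 5 kb up to 10 kb the share was 15.7%. Of the 2499 series-wide clusters met by both replicates, 766 had both borders within 500 bp, a larger share than among the domains. The shares of all clusters that follow are lowered by unmet clusters in the same way. Exactly 1 border was within 500 bp in 273 domains (48.4%), against 10.8% of all clusters and 43.1% of those of 5 kb up to 10 kb. Neither was in 160 domains met by both replicates (28.4%), against 6.65% of all clusters and 30.6% of those of 5 kb up to 10 kb. The distances on the left and right of a domain were almost unrelated (Spearman correlation 0.06 across 563 domains).

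Domains with high scores had the closest borders. In the highest quartile of scores (0.696 to 1.25) the median border distance was 265 bp, and 64.2% of the borders were within 500 bp. In the lowest quartile (0.408 to 0.547) the median was 1243 bp and 30.1% were within 500 bp. Length went with the distance much less. Its Spearman correlation with the summed distance was -0.09, against -0.47 for the score. The class medians ran from 653 bp under 12 kb to 341 bp at 50 kb or more. The correlation of score and summed distance was not equal at all lengths. It was -0.59 from 10000 to 14999 bp (n = 263) and -0.51 from 15000 to 19999 bp (n = 120). In the 180 domains of 20000 bp or more it was weaker, at -0.25.

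**Figure D4:**
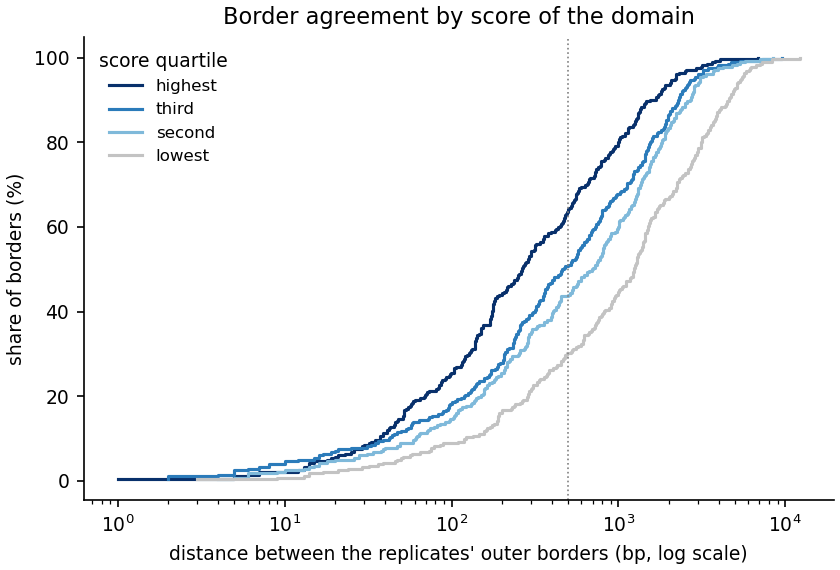
Cumulative share of borders (y axis, %) by the distance between the outer borders of replicates 1 and 2 (x axis, bp on a log scale, with 0 drawn at 1), for the 4 quartiles of domain score. The dotted line marks 500 bp, which 64.2% of the borders reach in the highest quartile and 30.1% in the lowest.

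The closest agreement was at 3L 11324992 to 11421540, a domain of 96.5 kb. Its outer borders were at 11325076 and 11421411 in replicate 1 and at 11325082 and 11421406 in replicate 2, which is 6 and 5 bp apart. Inside these borders replicate 1 had 5 clusters and replicate 2 had 7. Close borders thus did not require an unbroken domain. Next came 3R 878042 to 894778, with 14 and 26 bp, and 3R 5245826 to 5270046, with 14 and 32 bp. The first of these had the highest score and 1 cluster in each replicate, while the other had a score of 0.546, with 4 clusters in replicate 1 and 8 in replicate 2. The last of the 5 closest were X 6875966 to 6892718 (18 and 29 bp) and 3R 27539552 to 27550592 (48 and 13 bp), each with 1 cluster per replicate.

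The poorest agreement was at 3R 24378782 to 24396178 (17.4 kb, score 0.411), where replicate 1 had 1 cluster of 11.6% of the domain and replicate 2 had 4. Its left borders were 12206 bp apart and its right borders 2621 bp. The score was the second lowest of all domains. Likewise the other domains among the 5 lowest scores, at 2L 18493824 to 18508450, 3L 14443530 to 14454960 and 3R 25897428 to 25909542, had summed border distances of 5819, 3652 and 6759 bp.

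Replicate borders mostly lay inside the series-wide border. The median inset was 412 bp on the left and 422 bp on the right in replicate 1, and 567 and 501 bp in replicate 2. A replicate 1 cluster reached beyond the series-wide border on the left in 50 domains (8.88%) and on the right in 39 (6.93%), and a replicate 2 cluster in 39 (6.93%) and 31 (5.51%), of the 563 domains met by both. Over all 9912 series-wide clusters, the shares on the left and right were 2.22% and 1.92% in replicate 1 and 1.72% and 1.58% in replicate 2. Only the 2499 clusters met by both replicates could be counted there, so these shares are low by construction. The counts were 220, 190, 170 and 157 of those 2499, shares much like those of the domains. Among all 935 clusters of 5 kb up to 10 kb, the shares were 7.49% and 6.84% in replicate 1 and 4.71% and 4.81% in replicate 2. Of the replicate clusters that touched a domain, 1684 of 1773 (95.0%) in replicate 1 and 1844 of 1913 (96.4%) in replicate 2 were wholly inside it. Those clusters made up 31.1% of the replicate 1 list and 34.9% of the replicate 2 list, but 51.3% and 53.3% of the bases of these lists were in domains.

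Every cluster of 10 kb or more in a replicate touched a domain, 201 in replicate 1 and 168 in replicate 2. A domain held such a cluster in both replicates in 105 cases (18.6%), against 1.06% of all series-wide clusters, in replicate 1 alone in 65 and in replicate 2 alone in 33. The other 361 domains (64.0%) held none. The background share was fixed by the choice of domains, since a cluster under 10 kb can hardly hold one of that length.

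Scores of the domains went with length and, more closely, with coverage in the replicates. The median score was 0.614, against 0.517 for clusters of 5 kb up to 10 kb and 0.422 for all clusters under 10000 bp, and 560 of the domains were at or above the median of the whole list, 0.427. The Spearman correlation of score and length across domains was 0.42 (n = 564), close to that across all clusters, 0.40. Among clusters of 10 kb or more within a replicate list it was lower, 0.29 in replicate 1 and 0.31 in replicate 2. The class medians were 0.569 under 12 kb, 0.563 from 12 to 15 kb, 0.613, 0.655 and 0.696 in the next classes and 0.790 at 50 kb or more. Over the 384 domains under 20 kb the correlation was 0.14. From 10 to 15 kb it was -0.03 (n = 263 met by both replicates), from 15 to 20 kb 0.06 (n = 120) and from 20 kb upwards 0.42 (n = 180).

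**Figure D5:**
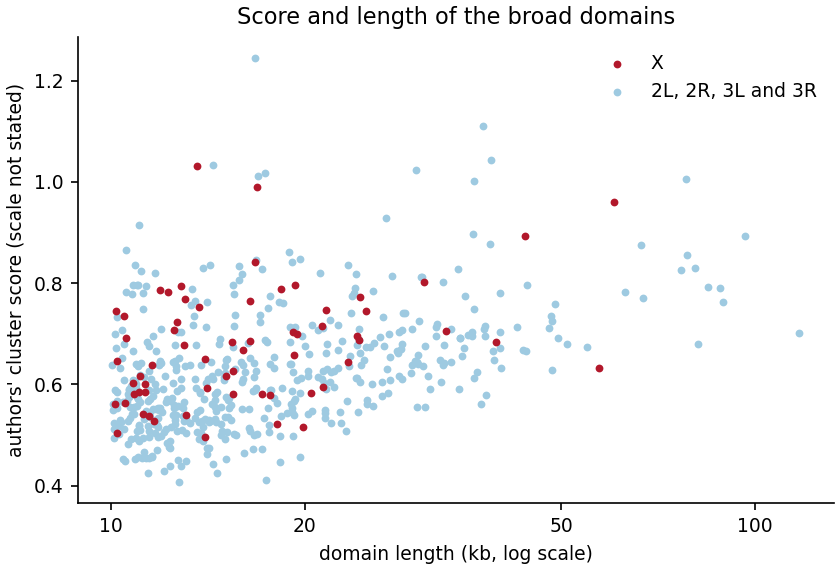
Authors' score (y axis, scale not stated) against length (x axis, kb on a log scale) for the 564 domains, with the X in red and the autosomal arms 2L, 2R, 3L and 3R in light blue. The highest scores, up to 1.25, are not at the longest domains, and the 17 domains of 50 kb or more all have scores of 0.632 or higher.

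Score and the share of bases in both replicates had a correlation of 0.87 across the 563 domains, and within these length classes it was 0.85, 0.87 and 0.82. Score and number of clusters ran in opposite directions within the classes, at -0.41, -0.62 and -0.50, and stood at -0.14 over all domains. All of these values come from the same libraries, so they describe how the lists relate to each other. From the lowest to the highest quartile of scores, the median share of bases in both replicates was 35.8%, 56.5%, 71.3% and 86.7%.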

How the data were processed

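Clusters of H4K8ac ChIP-seq from Oregon-R larvae were read from 1 list per ChIP replicate and 1 list for the whole series. Per the submitters' processing notes, Bowtie 0.12.7 aligned the reads, and positions follow FlyBase release 5, per the file headers. For every cluster the authors deposited an arm, a first base, a last base and a score. The scale of the score, the caller and its thresholds, and the use of the inputs are not stated. No list holds read counts, so depth is unknown and no counting interval was attached to a cluster.

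Domains were clusters of at least 10000 bp in the series-wide list. Each was intersected with the replicate lists (at least 1 base) with pandas 2.3.3, numpy 2.4.6 and scipy 1.17.1 under Python 3.11.15. The covered shares and cluster numbers were equal to those from bedtools 2.31.1 in 564 of 564 domains for each replicate. The calculation was tested on simulated lists with known splits and borders, and returned them. Groups were runs of domains at most 50 kb apart. No test was run, since the series-wide list may rest on the same reads as the replicate lists. Values are given with the SD over 2 replicates where each replicate has one. Named regions are the 5 highest and 5 lowest scores, the 5 with most clusters, the 5 least shared, the 5 with the closest borders, the 5 largest groups, the 5 longest stretches between domains, 3 clusters on each side of the length limit and the longest domain of each arm. All other regions named in the text were chosen after their values were seen. The domains, lists and rules were chosen with earlier results of these data known. The gene table used here follows release 6, so no gene was named from a position.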

Additional observations from a re-analysis of the deposited data

How the results depend on the processing

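The values follow the chosen limits. With a limit of 15000 bp there were 300 domains, and merging series-wide clusters under 1000 bp apart first gave 869 over 20.3 Mb. Bases in both replicates, 66.5%, were 62.9% at 8000 bp, 71.6% at 15000 bp, 70.7% with replicate clusters under 1000 bp apart merged, 52.5% with only clusters whose score reached the list median, and 76.8% to 80.0% in a single replicate. Domains met by both, 99.8%, were 82.6% and 13.5% when 50% and 90% had to be covered, and 90.6% with the stricter score. Domains held by 1 cluster in both, 6.38%, were 29.3% after merging, 4.67% at 15000 bp, and 12.2% to 14.4% in a single replicate. The border distance of 571 bp was 2292 bp for the longest cluster of each replicate, 170 bp in domains covered to 90% and 902 bp after merging. Domains with a neighbour, 65.2%, were 53.9% within 20 kb, 76.2% within 100 kb, 55.3% at 15000 bp, and 58.3% to 58.7% in a single replicate. The correlation of score and length was 0.46 at 8000 bp, 0.38 at 15000 bp, 0.50 on 2L, 0.37 on 2R, 0.48 on 3L, 0.48 on 3R and 0.33 on the X. The X ratio, 0.538, was 0.624 at 8000 bp and 0.419 to 0.480 in a single replicate. Stricter rules for coverage and distance can only lower such shares. For the other changes the cause was not tested. Of 42 alternative values, 8 moved by less than the spread used (the SD of 2 replicates, 1.5 times for counts, or a 95% interval). The 95% interval was binomial over domains for the share met by both, and over ranked border distances for the border median. Such intervals treat domains and borders as independent, although they share libraries and list. They served only to label a change and do not measure variation between replicates. No paired analysis was possible because no list of the input libraries, numbered like the ChIP replicates, was analysed here.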

Other observations

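Replicate clusters that touched a broad domain were longer and had higher scores than the other clusters of their list. In replicate 1 their median length was 3110 bp, against 1794 bp for the rest, and in replicate 2 it was 2805 bp, against 1784 bp. Their median score, the authors' own value, was 0.654 and 0.671, against 0.583 and 0.615. The upper quartile of scores of a list took in 42.8% of them in replicate 1 and 36.4% in replicate 2. By definition it takes in about 1 in 4 of all clusters of a list, so clusters that touched domains were over-represented there. Many of them still lay below it.

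Between the replicate clusters of a domain, the widest place where breaks of both replicates met was 3952 bp, in 3R 13770064 to 13784146, which had 2 breaks in replicate 1 and 1 in replicate 2. In X 12117050 to 12140364 it was 3804 bp, among 6 and 4 breaks. The series-wide list runs across both places. At the end of a domain, beyond its outermost replicate clusters, the widest stretch in neither replicate was 5726 bp, in 3R 6448972 to 6460762. Coverage by the replicates together was complete for 1 domain, at 3R 20084820 to 20096682, of which replicate 1 covered 98.2% and replicate 2 covered 87.1%. These domains were chosen after their values were seen.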
